A study of Mus musculus with 15 samples.

Results

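The melanin synthesis and melanosome genes described here are 10 genes chosen by symbol: *Mitf*, *Tyr*, *Tyrp1*, *Dct*, *Pmel*, *Mlana*, *Oca2*, *Slc45a2*, *Slc24a5* and *Gpr143*. All 10 are among the 25038 genes of the count table of mouse RPE/choroid (the retinal pigment epithelium with the vascular layer behind it), and 3 of them (*Mitf*, *Pmel* and *Slc24a5*) are among the 20910 genes of the count table of cultured mouse RPE cells (mRPE). The other 7 were not analysed here in mRPE. The RPE/choroid came from 3 WT libraries and from 3 libraries labelled *Prom1*-KO, of mice in which floxed *Prom1* was to be deleted in the RPE by *RPE65*-Cre after tamoxifen was given by gavage. The age of these mice was not given in the sources used here. The mRPE cells were isolated from pooled adult C57/BL6J mice and immortalised with lentiviral HPV E6/E7, a treatment that WT and *Prom1*-KO cells share. *Prom1* was targeted with Cas9 and a guide RNA, and 2 clones were sequenced, KO22 in 3 libraries and KO26 in 2, beside 4 WT libraries. Each knockout group is thus a single clone, and its libraries are repeats of that clone. The mRPE libraries carry run numbers, 8995 (1 library each of WT, KO22 and KO26) and 9262 (3 WT, 2 KO22 and 1 KO26), which are used as the batch. The study calls its replicates biological, but which animal or culture each library came from is not given in the sources used here, so the p-values measure only the spread between these libraries.

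Melanin is made from tyrosine inside melanosomes, organelles related to lysosomes that mature on a scaffold of amyloid fibrils. Pigmented cells of the eye come from 2 sources, the neuroepithelium, which gives the RPE, and the neural crest, which gives the melanocytes of the choroid, and both use the same enzymes and transporters. The transcription factor MITF activates many of these genes through E-boxes, short DNA motifs such as CATGTG in their promoters. In the RPE melanin is made mainly during development, and loss of single members causes forms of albinism.

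The promoters of *Tyrp1*, *Tyr* and *Dct* are shown because these enzyme genes share the letters that MITF is known to bind. RefSeq (build GRCm38.p6) gave 8 promoters for 6 of the 10 genes (*Mitf* with 3, and *Slc24a5*, *Tyrp1*, *Oca2*, *Tyr* and *Dct* with 1 each), and the 250 bases before each start were searched on both strands. The capitals mark CATGTG, and each window is written 5′ to 3′ in the direction of the gene.
Tyrp1, chr4:80834137-80834202, plus strand: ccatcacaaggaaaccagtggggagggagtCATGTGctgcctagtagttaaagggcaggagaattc
Tyr, chr7:87493513-87493563, minus strand: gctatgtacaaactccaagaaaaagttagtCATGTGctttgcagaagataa
Dct, chr14:118052361-118052426, minus strand: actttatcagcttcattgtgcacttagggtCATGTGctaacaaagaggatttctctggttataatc

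The motif began 46 bases before the annotated start of *Tyrp1*, 21 bases before that of *Tyr* and 150 bases before that of *Dct*. CATGTG was present in 5 of the 8 promoters (62.5%) and in 12.3% of all 32851 promoters. The longer run TCATGTGCT, which contains CATGTG and was chosen after the sequences were read, was present in 3 of the 8 (37.5%) and in 0.335% of all promoters. The related E-box CACGTG was in 0 of the 8 and in 6.02% of all promoters. None of the 3 annotated *Mitf* promoters held either 6-base motif in this window. These matches describe letters only, since binding was not measured.

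The depth was 48154444 to 61766179 counts per RPE/choroid library and 8076188 to 27537863 per mRPE library. Mitochondrial genes held 64.9% to 71.3% of the counts in 5 RPE/choroid libraries and 84.2% in *Prom1*-KO replicate 3, which stands apart, so results on the tissue are also given without it. In mRPE the mitochondrial share was 12.9% to 21.6%. Counts on the whole *Prom1* gene did not separate the libraries labelled *Prom1*-KO from WT. Their *Prom1* levels were 49.9, 48.1 and 35.5 CPM (the count divided by the TMM-scaled library size) beside 48.7, 49.6 and 53.3 in WT (log2 fold change -0.18, adjusted p = 0.824 by edgeR's quasi-likelihood test). Which exons the allele removes is not given in the sources used here, and *Prom1* RNA of cells other than the RPE is counted too. The tissue groups are therefore named by their labels throughout, and *Prom1* was not analysed here in mRPE.

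In RPE/choroid the levels of the pigment genes spanned a wide range, with a pair of enzymes and the structural proteins at the top. Per kilobase of exon, the mean level in WT was highest for *Tyrp1* (122 ± 16.1 CPM per kb, SD, n = 3), which encodes an enzyme late in eumelanin synthesis. *Dct* (77.9 ± 21.3), the dopachrome tautomerase, and *Pmel* (75.7 ± 10.2), the fibril protein of the melanosome, came next, and their ranges overlapped. *Mlana* (41.6 ± 14.4), a melanosome membrane protein needed for PMEL maturation, overlapped the range of *Dct* and lay below that of *Pmel*. The next 3 genes overlapped in their ranges, namely *Slc24a5* (12.0 ± 1.63), a cation exchanger, *Tyr* (10.9 ± 2.27), the rate-limiting tyrosinase, and *Slc45a2* (10.0 ± 1.64), a transporter of the melanosome. *Mitf* (4.96 ± 0.512 CPM per kb) and *Oca2* (4.57 ± 0.769), the latter needed for melanosomal pH, also overlapped. *Gpr143* was lowest at 1.93 ± 0.105 CPM per kb and encodes a receptor of the melanosome membrane that is mutated in ocular albinism. *Slc24a5* shares 1698 bases (29.11% of its exon bases) with *Myef2* on the other strand, and *Pmel* shares 442 bases (19.28%) with *Dgka* and 34 (1.483%) with *Cdk2*. The kit was stranded but the strand column that was counted is not stated, so how reads in these overlaps were assigned or dropped is not known.

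The first comparison asked whether the pigment genes differed between RPE/choroid labelled *Prom1*-KO and WT. A gene was called where its adjusted p was under 0.05 and its log2 fold change lay beyond 1.2 in either direction, the limits of the study's methods. None of the 10 genes was called by edgeR's test, with 0 called higher against a background of 0% of the 24926 genes tested and 0 called lower against 0.189%. At an unadjusted p under 0.05 there were 2, *Mitf* and *Gpr143*, both lower, beside 2068 of the 24926 genes tested in either direction. DESeq2's test also called 0 of the 10. The median log2 fold change of the 10 genes was -0.15, beside 0.01 over all genes tested, and it was -0.06 without *Prom1*-KO replicate 3. In bulk tissue a change in the number of pigmented cells and a change in RNA per cell cannot be told apart.

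*Mitf* was the member with the largest difference. Its levels were 53.9, 52.6 and 44.3 CPM in WT replicates 1 to 3 and 27.5, 27.6 and 30.3 CPM in the libraries labelled *Prom1*-KO. All 3 of the latter lay below all 3 WT libraries. The log2 fold change was -0.82 (SE 0.13, 95% interval -1.12 to -0.52), with an adjusted p = 0.0815 by edgeR's quasi-likelihood test. By DESeq2's test the adjusted p was 3.47e-05, with the fold change again inside the limit of 1.2, and the other fits over all 6 libraries gave up to 0.0827. Over the fits that left out 1 library, the log2 fold change of *Mitf* ran from -0.90 to -0.77 and its adjusted p, by edgeR, from 0.104 to 0.356. Without *Prom1*-KO replicate 3 the log2 fold change was as large, at -0.88.

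None of the 3 enzyme genes was called, and their fold changes had both signs. *Tyr*, which catalyses the initial steps, had 95.8, 71.5 and 65.3 CPM in WT and 115, 91.9 and 81.5 CPM in the libraries labelled *Prom1*-KO. The groups overlapped, and the 95% interval of the log2 fold change was -0.16 to 0.78. *Tyrp1* had 374, 368 and 292 CPM in WT and 331, 328 and 269 CPM in labelled *Prom1*-KO, with overlapping groups and an interval of -0.56 to 0.24. *Dct* was at 545, 517 and 315 CPM in WT and at 591, 570.2 and 619 CPM in labelled *Prom1*-KO. For *Dct* every labelled *Prom1*-KO library lay above every WT library. The log2 fold change of *Dct* was 0.37 (SE 0.23, adjusted p = 0.739, edgeR), and without WT replicate 3, the lowest WT library, it was 0.16.

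Among the structural proteins, *Pmel* had 186, 188 and 146 CPM in WT and 154, 186 and 128 CPM in labelled *Prom1*-KO. *Mlana* had 66.3, 46.8 and 32.8 CPM in WT and 54.7, 57.8 and 39.6 CPM in labelled *Prom1*-KO. Both overlapped between groups, with 95% intervals of the log2 fold change of -0.59 to 0.28 for *Pmel* and -0.57 to 0.69 for *Mlana*. *Mlana* spread widely within WT, and its direction changed when any of 3 libraries was left out.

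None of the melanosomal transporters and channels was called. *Slc24a5* had 80.5, 68.2 and 61.7 CPM in WT and 71.6, 70.7 and 72.6 CPM in labelled *Prom1*-KO, and its interval was -0.29 to 0.35 on the log2 scale. *Slc45a2* had 26.7, 35.6 and 27.5 CPM in WT and 24.1, 24.9 and 29.9 CPM in labelled *Prom1*-KO, with an interval of -0.56 to 0.19. For *Slc24a5* and *Slc45a2* the ranges of the groups overlapped. *Oca2* had 23.5, 18.6 and 17.1 CPM in WT and 16.3, 20.5 and 16.9 CPM in labelled *Prom1*-KO, also overlapping (-0.53 to 0.25). *Gpr143* had 4.01, 4.23 and 3.79 CPM in WT and 3.11, 2.91 and 2.79 CPM in labelled *Prom1*-KO, which do not overlap. Its log2 fold change was -0.45 (SE 0.15, adjusted p = 0.443, edgeR), from 84 to 286 reads per library.

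In all, 1 of the 10 genes (*Dct*) was higher without overlap, against 6.71% of all genes tested, and 2 (*Mitf* and *Gpr143*) were lower without overlap, against 7.89%. The plot of the 10 genes by library shows the separation of *Mitf* beside the overlap of its neighbours.

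**Figure D1:**
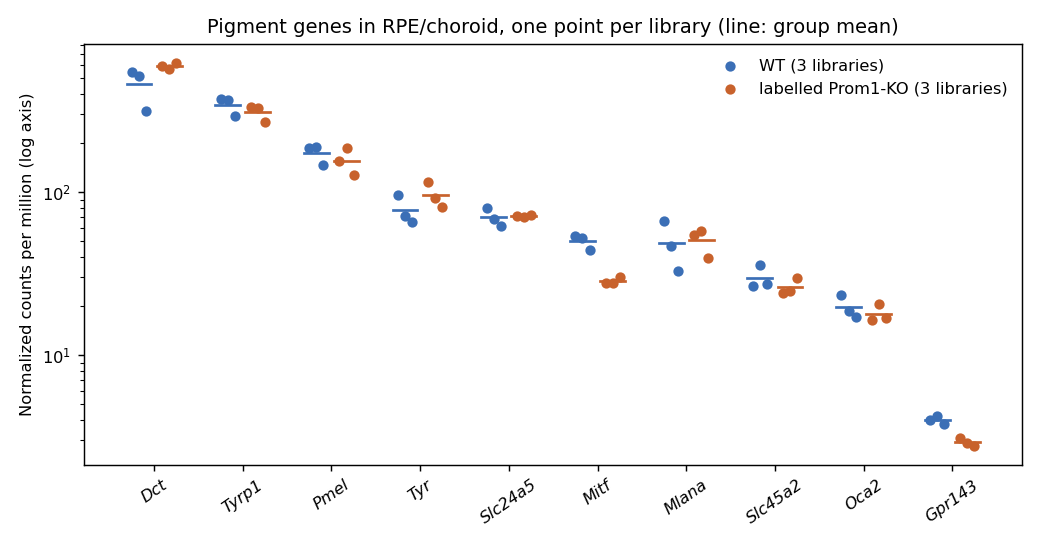
Normalized CPM (log axis) of the 10 pigment genes in each RPE/choroid library, with 3 WT and 3 labelled Prom1-KO points per gene and a line at each group mean. Mitf sits at 44.3 to 53.9 CPM in WT and 27.5 to 30.3 CPM in labelled Prom1-KO, while 7 of the 10 genes overlap between the groups.

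The pigment genes were then set beside markers of the cells that the tissue can hold, first the RPE. Of 10 RPE marker genes, most of them of the visual cycle and transport, 6 fell in the libraries labelled *Prom1*-KO (background 0.189%) and all 10 had a negative log2 fold change, with a median of -2.54. Without *Prom1*-KO replicate 3 there were 4, with a median of -2.43, beside 37 of all 24787 genes tested that were called lower. *Rpe65*, the retinoid isomerase, was at 279.8, 204 and 287 CPM in WT and at 1.13, 5.97 and 4.48 CPM in labelled *Prom1*-KO (log2 fold change -6.06, adjusted p = 0.0191 by edgeR). The other called markers were *Lrat* (log2 fold change -3.43), *Slc16a8* (-2.98), *Rrh* (-1.89), *Rdh5* (-2.10) and *Rgr* (-5.23). *Ttr*, the transthyretin gene and the most abundant of the list in WT, had a log2 fold change of -3.01 and did not pass (adjusted p = 0.0709, edgeR). DESeq2's test called 9 of the 10 markers lower, adding *Ttr*, *Rlbp1* and *Stra6*, beside 188 of all 24926 genes tested. *Best1*, the remaining marker, overlapped between the groups (log2 fold change -0.25 by DESeq2). Each of the 10 pigment genes had a log2 fold change between -0.82 and 0.37 in the same libraries.

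**Figure D2:**
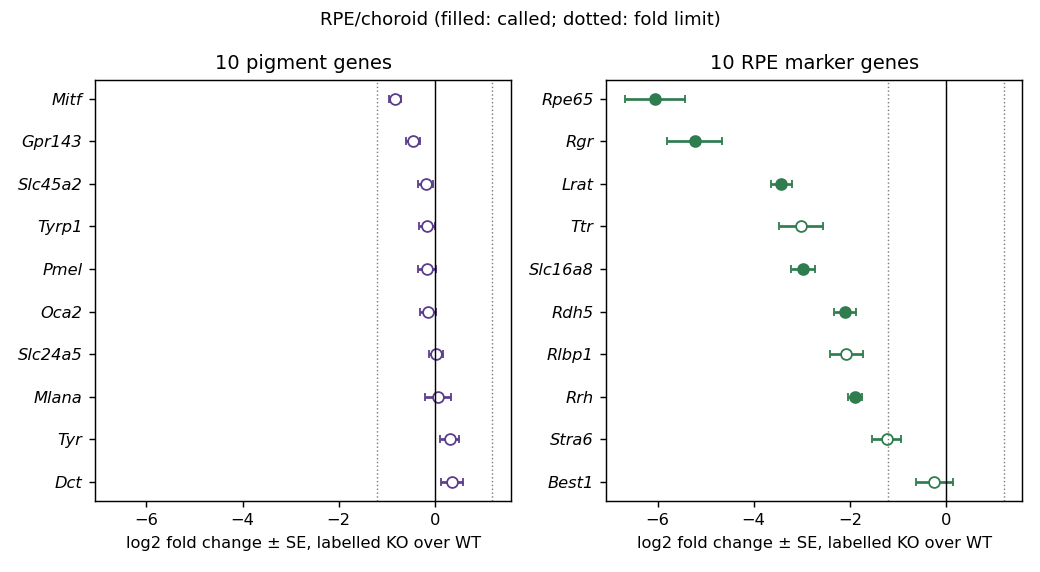
Log2 fold change with its SE (RPE/choroid labelled Prom1-KO over WT, n = 3 and 3) for the 10 pigment genes (left) and 10 RPE marker genes (right), with filled points for called genes and dotted lines at the fold limit of 1.2. The pigment genes lie between -0.82 and 0.37, and the RPE markers reach -6.06.

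Summed over their lists, the pigment genes held 1456, 1371 and 1006 CPM in WT and 1389, 1380.4 and 1290.0 CPM in labelled *Prom1*-KO, with overlapping groups. *Dct* and *Tyrp1*, with WT means of 459 and 345 CPM in a mean sum of 1278 CPM, weigh most in it. Genes at a low level, such as *Mitf* and *Gpr143*, hardly move it. The RPE markers held 2404, 1488 and 2176 CPM in WT and 126, 251 and 157 CPM in labelled *Prom1*-KO, with no overlap. The sum of the pigment genes divided by that of the RPE markers was 0.606, 0.921 and 0.463 in WT and 11.04, 5.50 and 8.20 in labelled *Prom1*-KO. The ratio was thus higher in each labelled *Prom1*-KO library than in any WT library, and no marker of either list was at 0 in a group.

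**Figure D3:**
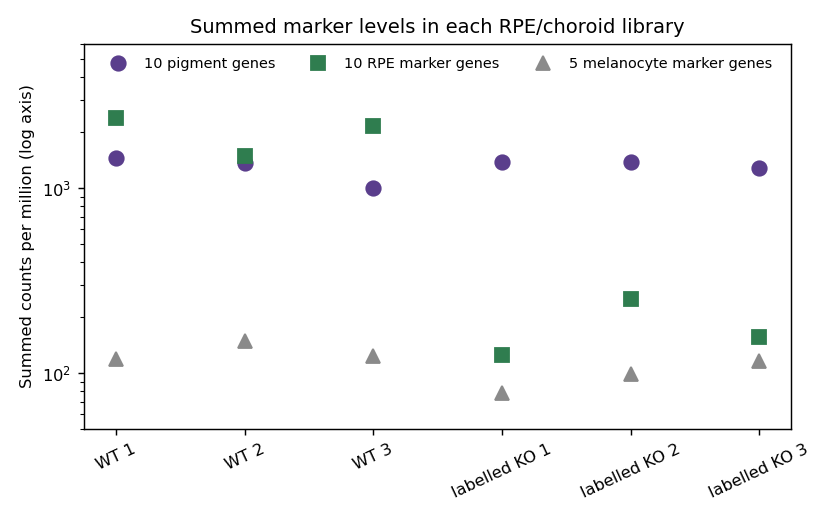
Summed CPM (log axis) of the 10 pigment genes, 10 RPE marker genes and 5 melanocyte marker genes in each of the 6 RPE/choroid libraries. The pigment genes stay at 1006 to 1456 CPM, while the RPE markers go from 1488 to 2404 CPM in WT to 126 to 251 CPM in labelled Prom1-KO.

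Melanocyte markers (*Sox10*, *Kit*, *Ednrb*, *Mc1r* and *Pax3*) were called in 0 of 5 cases by edgeR (1 lower at an unadjusted p under 0.05) and in 0 by DESeq2. Their summed level was 119 to 149 CPM in WT and 78.4 to 116 CPM in labelled *Prom1*-KO, without overlap, and their median log2 fold change was -0.44. Of the 5 genes, 2 had a positive and 3 a negative log2 fold change. Only *Ednrb*, which holds most of the sum, separated the groups, and the other 4 overlapped. *Ednrb*, an endothelin receptor and the most abundant of them, was at 80.7, 106 and 76.8 CPM in WT and at 53.5, 70.0 and 70.3 CPM in labelled *Prom1*-KO (log2 fold change -0.44, adjusted p = 0.585, edgeR). The sum of the pigment genes divided by that of the melanocyte markers was 8.18 to 12.3 in WT and 11.1 to 17.7 in labelled *Prom1*-KO, with overlap. The part of either cell type in the pigment gene levels was not tested.

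Other cell types in the tissue also varied between libraries. By edgeR none was called among 6 Schwann cell, 15 photoreceptor, 8 endothelial, 6 fibroblast, 7 immune or 8 skeletal muscle genes. At an unadjusted p under 0.05 there were 3 Schwann cell genes higher, and 1 photoreceptor and 6 endothelial genes lower. There were also 3 immune genes higher and 1 lower, and 0 fibroblast or muscle genes. These counts stand beside 2068 of the 24926 genes tested, in either direction. DESeq2's test called 2 of the 8 endothelial genes, both lower, and no gene of the other lists in this paragraph. Over all genes it called 188 lower and 83 higher of the 24926 tested. The summed photoreceptor level ranged from 46.6 to 1221 CPM in WT and from 23.9 to 589.5 CPM in labelled *Prom1*-KO. Without *Prom1*-KO replicate 3, 3 fibroblast and 6 muscle genes were lower at an unadjusted p under 0.05, beside 2359 of 24787 genes tested in either direction. Fibroblast genes, led by *Dcn*, summed to 918 to 1909.8 CPM in WT and 811 to 1861 CPM in labelled *Prom1*-KO, and muscle genes, led by *Myh4*, to 296 to 949 and 67.1 to 830.1 CPM. Endothelial genes, led by *Kdr*, summed to 78.0 to 159.7 CPM in WT and 46.6 to 71.3 CPM in labelled *Prom1*-KO, without overlap. Schwann cell genes, led by *Mbp*, summed to 33.6 to 44.9 and 36.8 to 246 CPM, and immune genes, led by *Cd68*, to 94.2 to 116 and 92.3 to 117 CPM. The part of these cells in the pigment gene levels was not tested.

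The machinery that builds and moves melanosomes was described with a list of 38 genes (the HPS complexes, AP-3, RAB27A and its partners, copper and cystine transport). In RPE/choroid 1 of the 38 was called, *Myrip*, which was lower in the libraries labelled *Prom1*-KO. MYRIP links RAB27A on melanosomes to myosin VIIa in the RPE. *Myrip* was at 29.7, 24.9 and 33.5 CPM in WT and at 13.6, 10.7 and 11.4 CPM in labelled *Prom1*-KO, with no overlap. Its log2 fold change was -1.30 (SE 0.16, adjusted p = 0.0358 by edgeR), and the call was lost in each of the 6 fits that left out 1 library. The motor gene *Myo7a* had a log2 fold change of -0.47 and *Rab27a* of -0.28, and neither passed. The median of the list was 0.02, beside 0.01 over all genes tested. *Gpnmb*, a relative of *Pmel* and the most abundant gene of the list, had 385, 314 and 276 CPM in WT and 428, 420 and 440 CPM in labelled *Prom1*-KO and was not called (log2 fold change 0.40). *Slc7a11*, a cystine transporter gene described with the cultures, was at 16.0, 4.60 and 5.12 CPM in WT and at 28.5, 20.7 and 6.37 CPM in labelled *Prom1*-KO, with overlap and no call (log2 fold change 1.11, adjusted p = 0.715, edgeR).

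Regulators of pigment genes were also measured in the tissue. Of 12 genes of the MITF family and RPE fate factors 0 were called by edgeR (0 at an unadjusted p under 0.05) and 0 by DESeq2, with a median log2 fold change of -0.12. None of these 12 separated the groups without overlap. Of 8 genes of melanogenic signalling (the MC1R, KIT and endothelin pathways) 0 were called by edgeR or DESeq2, with 2 lower at an unadjusted p under 0.05. Those were *Ednrb*, given with the melanocyte markers, and *Edn3*, an endothelin ligand chosen after its values were seen. *Edn3* was at 69.1, 99.9 and 71.7 CPM in WT and at 37.2, 44.1 and 51.1 CPM in labelled *Prom1*-KO, without overlap (log2 fold change -0.86, adjusted p = 0.211 by edgeR and 0.00970 by DESeq2's test, inside the fold limit by both).

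The members differed in how much they varied across the 6 tissue libraries. Centred on each gene's own mean, the root-mean-square deviation over libraries was 0.11 (*Slc24a5*) to 0.42 (*Mitf*) on the log2 scale. The distance of a member from the mean profile of the 10 was smallest for *Tyrp1* (0.07) and largest for *Mitf* (0.37). Of 4999 other genes with a mean of at least 10 CPM, the nearest to that mean profile were *Slc35a1*, *Cblb*, *Apobec1*, *Ccdc6* and *Anxa4*, at 0.042 to 0.045 on the log2 scale over 6 libraries.

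In cultured mRPE the 3 members analysed were far lower than in tissue. On CPM over all genes of each table, *Mitf* was at 60.8 ± 3.15 CPM in WT RPE/choroid (n = 3) and 5.72 ± 1.97 CPM in WT mRPE (SD, n = 4), a ratio of 10.6. *Pmel* was at 209 ± 14.2 and 2.13 ± 0.244 CPM, a ratio of 98.2, and *Slc24a5* at 84.9 ± 10.1 and 19.1 ± 1.77 CPM, a ratio of 4.45. The ranges of tissue and culture did not overlap for any of the 3. The tables were made separately, so no test was run, and without mitochondrial genes, which held most counts in the tissue, the ratios were 26.0, 239.8 and 10.8. *Pmel* rested on only 14 to 50 reads per mRPE library. Of the 10 RPE markers, 4 were analysed in mRPE, with a summed level of 10.2 to 12.8 CPM in WT, and *Rpe65*, *Lrat*, *Rgr*, *Rlbp1*, *Ttr* and *Slc16a8* were not analysed here, so the RPE identity of the cultures could not be checked by them.

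The second comparison asked how the clone KO22 differed from WT mRPE. *Mitf* was called higher, 1 of the 3 members, against 11.4% of the 20455 genes tested, and 0 were called lower (0 at an unadjusted p under 0.05, and 0 by DESeq2's test), against 13.8%. In run 8995 *Mitf* was at 3.02 CPM in WT and 20.1 CPM in KO22. In run 9262 it was at 6.17, 6.77 and 6.03 CPM in WT and at 12.5 and 10.4 CPM in KO22. Each KO22 library lay above each WT library, and the gap was widest in run 8995. The log2 fold change was 1.41 (SE 0.33, 95% interval 0.67 to 2.15, adjusted p = 0.00550 by edgeR). Within run 8995 the log2 ratio was 2.74 from 1 library a side, and within run 9262 it was 0.86. Without WT replicate 1 the fitted value was 0.86, and without KO22 replicate 1 it was 0.88, both under the fold limit of 1.2 with an adjusted p by edgeR of 5.42e-05 and 7.19e-05, so the call rests on those 2 libraries of run 8995 while the direction does not. Over all fits that left out 1 library its adjusted p was at most 0.0202.

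*Slc24a5* was higher in KO22 by less than the fold limit. It was at 20.4, 20.0, 18.4 and 16.0 CPM in WT and at 28.2, 29.9 and 28.9 CPM in KO22, without overlap (log2 fold change 0.63, SE 0.13, adjusted p = 0.00270 by edgeR). *Myef2*, the gene that overlaps its exons on the other strand, moved with it, from 76.8, 69.2, 65.9 and 60.6 CPM in WT to 109, 116 and 131 CPM in KO22 (log2 fold change 0.80, adjusted p = 0.000413, edgeR). The ratio of *Slc24a5* to *Myef2* was 0.264 to 0.289 in WT mRPE and 0.220 to 0.258 in KO22, beside 0.886 to 1.02 in WT RPE/choroid. The part of *Myef2* reads in the *Slc24a5* counts was not tested.

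*Pmel* was at 1.99, 1.92, 2.26 and 2.15 CPM in WT and at 1.21, 1.69 and 1.78 CPM in KO22, lower without overlap. Its log2 fold change was -0.40 (95% interval -0.98 to 0.18, adjusted p = 0.216, edgeR), which did not pass. Without overlap, 2 of the 3 members were higher in KO22 (24.8% of all genes tested) and 1 was lower (25.3%), so the separation of all 3 is read against a background where about as many genes separate in each direction.

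The third comparison asked the same of the clone KO26, in a fit over all 9 mRPE libraries. The study found both KO26 libraries to be outliers and removed them before its own tests, proposing biological heterogeneity or technical anomalies. Every KO26 result here, also beside KO22, rests on them. None of the 3 members was called higher (background 1.21% of 20737 genes) or lower (0.719%) by edgeR. At an unadjusted p under 0.05, 1 member, *Mitf*, was lower, beside 4163 of all genes tested in either direction. DESeq2's test called *Mitf* lower. *Mitf* was at 1.62 CPM in run 8995 and 2.08 CPM in run 9262, from 35 and 18 reads. Both KO26 libraries lay below all 4 WT libraries. The log2 fold change was -1.54 (SE 0.44, 95% interval -2.52 to -0.57, adjusted p = 0.0864 by edgeR), with log2 ratios of -0.89 within run 8995 and -1.60 within run 9262. DESeq2's test gave an adjusted p of 0.0115, and the edgeR fit on the WT and KO26 libraries alone gave -1.28 with an adjusted p of 0.00537. Leaving out WT replicate 1 or KO22 replicate 1 also brought the call, with adjusted p values by edgeR of 0.0225 and 0.00329, while over all fits that left out 1 library they ran from 0.00329 to 0.426.

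The other members did not separate KO26 from WT. *Slc24a5* was at 15.6 and 17.3 CPM in KO26 (log2 fold change -0.19, 95% interval -0.56 to 0.18) and *Pmel* at 2.00 and 2.66 CPM (0.21, -0.43 to 0.85). Both overlapped the WT range given for KO22. In KO26, 0 of the 3 members were higher without overlap (11.9% of all genes) and 1, *Mitf*, was lower (12.8%).

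The plot of the mRPE members by library shows *Mitf* high in KO22 and low in KO26, with *Slc24a5* and *Myef2* side by side.

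**Figure D4:**
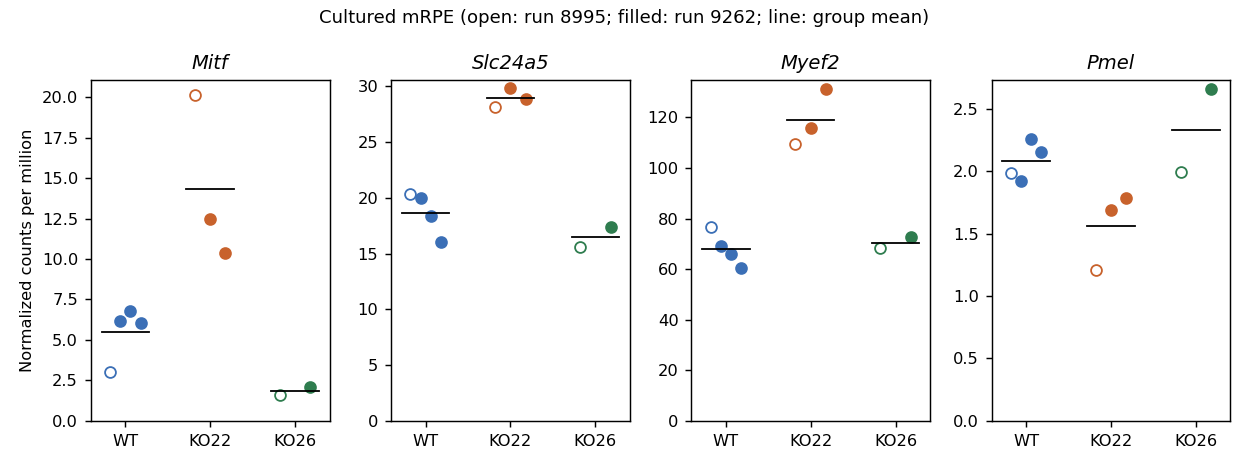
Normalized CPM (linear axes from 0) of Mitf, Slc24a5, Myef2 and Pmel in mRPE, 4 WT, 3 KO22 and 2 KO26 libraries, with open points for run 8995, filled points for run 9262 and a line at each group mean. Mitf is at 10.4 to 20.1 CPM in KO22, 3.02 to 6.77 CPM in WT and 1.62 to 2.08 CPM in KO26.

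KO22 was then tested directly against KO26, which share no library although both had been compared with the same WT libraries. *Mitf* was called higher in KO22 (1 of 3 members, against 7.56% of all genes), with a log2 fold change of 2.97 (SE 0.45, 95% interval 1.98 to 3.95, adjusted p = 0.000638 by edgeR). Its value ran from 2.16 to 3.18 over the fits that left out 1 library, and it was called in each of them. *Slc24a5* differed by 0.82 (95% interval 0.43 to 1.21, adjusted p = 0.00478, edgeR), under the fold limit, and *Myef2* by 0.76. *Pmel* differed by -0.61 (-1.30 to 0.08, adjusted p = 0.155, edgeR) and was not called, so 0 members were lower, against 10.7% (0 at an unadjusted p under 0.05 and 0 by DESeq2's test). Without overlap, 2 members were higher in KO22 (23.4% of all genes) and 1 was lower (24.6%).

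The melanosome machinery was then read in each clone against the share of all genes called. Of 34 list genes analysed in mRPE, 1 was called higher and 1 lower in KO22, beside 11.4% and 13.8% of all genes tested. *Slc7a11*, the cystine transporter subunit that sets pheomelanin in melanocytes and glutathione in most cells, rose in KO22 with a log2 fold change of 5.73 (adjusted p = 3.48e-08 by edgeR). *Slc7a11* was at 5.76, 2.33, 2.06 and 2.51 CPM in WT, at 288, 127 and 129.8 CPM in KO22 and at 22.3 and 13.6 CPM in KO26. The gene that fell in KO22, *Bloc1s1* (log2 fold change -1.49), was under 1 CPM in every mRPE library, shares 3692 bases (73.15% of its exon bases) with *Rdh5* on the same strand, and lost its call under DESeq2's test. With the adjusted p alone as the limit, 5 of the 34 were higher and 13 lower in KO22, beside 26.9% and 26.1% of all genes, and the median of the list was -0.28 (all genes -0.03). Those lower included *Hps1* (-0.90) and *Snapin* (-1.03), of complexes that sort cargo to melanosomes, and the AP-3 subunit gene *Ap3d1* (-0.93), named after their values were seen.

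In KO26, 1 of the 34 rose, again *Slc7a11* (log2 fold change 2.27, adjusted p = 0.000678 by edgeR), and 1 fell, *Gpnmb* (-1.91, adjusted p = 0.00421), beside 1.21% and 0.719% of all genes tested. *Gpnmb* was at 66.4, 112, 139.5 and 129 CPM in WT and at 22.6 and 30.9 CPM in KO26. In KO22 it was at 50.4, 60.0 and 46.6 CPM, also below all WT libraries but inside the fold limit (adjusted p = 0.00160 by edgeR). Between the clones 1 of the 34 was called higher in KO22, *Slc7a11* (3.46), and 2 lower, beside 7.56% and 10.7% of all genes tested. Those lower in KO22 than in KO26 were *Rab27a* (-1.77), the small GTPase that tethers melanosomes to motors, and *Myo7a* (-1.36), the myosin that moves them in the RPE. *Myo7a* was at 19.0, 22.4 and 19.9 CPM in KO22 and at 35.3 and 68.8 CPM in KO26, and *Rab27a* was at or under 4.92 CPM in all 9 libraries. Against WT, the log2 fold change of *Myo7a* by DESeq2's test was -0.35 in KO22 and 1.02 in KO26. For *Rab27a* it was -0.64 in KO22 and 1.14 in KO26. All of these lay inside the fold limit, and both genes differed more from WT in KO26 than in KO22.

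Upstream factors in mRPE were analysed for 9 of 12 genes of the MITF family and RPE fate list, of which 1 rose and 1 fell in KO22, a share near the background of 11.4% and 13.8%. *Sox9*, a partner of MITF and OTX2 at RPE genes, rose with a log2 fold change of 2.45 (13.7, 16.0, 16.2 and 13.8 CPM in WT, 111, 63.5 and 77.6 CPM in KO22 and 21.9 and 18.04 CPM in KO26). *Lhx2*, an eye-field factor, fell by 1.40 on the log2 scale from at most 2.65 CPM in WT, with 0 reads in 1 of the KO22 libraries. In KO26 0 of the 9 were called by edgeR and 1, *Lhx2*, was higher at an unadjusted p under 0.05 and called higher by DESeq2's test (log2 fold change 1.86 by edgeR). Between the clones *Sox9* was higher in KO22 (2.10) and *Lhx2* lower (-3.23). Of 3 signalling genes analysed, *Kitl*, the KIT ligand, rose in KO22 (log2 fold change 1.30), from 9.26 to 13.2 CPM in WT to 23.2 to 32.0 CPM, and was higher in KO22 than in KO26 (1.62), while 0 of 3 were called in KO26 by either test. *Pax3*, a neural crest and melanocyte factor and the only melanocyte marker analysed in mRPE, fell in KO22 by 3.49 on the log2 scale, from 16.5 to 23.3 CPM in WT to 0.259 to 3.23 CPM in KO22. *Pax3* stayed at 17.03 and 24.2 CPM in KO26, and its difference between the clones was -3.66. Of the 4 RPE markers analysed, *Stra6* (2.04) and *Rrh* (1.74) rose in KO22. *Rdh5*, a retinol dehydrogenase gene, was lower without overlap in KO22 (log2 fold change -1.13, adjusted p = 0.00393 by edgeR, inside the fold limit) and in KO26 (-0.32, not called), and *Best1* overlapped in both. Of these 4 markers 0 were called in KO26 by edgeR (*Stra6* was higher at an unadjusted p under 0.05 and was called by DESeq2's test).

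Markers of other cell types in the cultures also differed in KO22, where 11.4% of all genes tested were called higher and 13.8% lower. Endothelial genes summed to 153 to 239 CPM in WT mRPE, 5.35 to 6.65 CPM in KO22 and 57.6 to 75.9 CPM in KO26. Of these genes 2 of 6 were called lower in KO22 (*Kdr*, -6.22, and *Tek*, -2.38) and 1 higher (*Plvap*, 1.82). KO22 and WT overlapped for *Pecam1*, *Plvap*, *Esam* and *Egfl7*, so the lower sum rests on *Kdr* and *Tek* and not on the list as a whole. Fibroblast genes summed to 12804 to 17500.1 CPM in WT, 5565 to 8668 CPM in KO22 and 19867 to 21794 CPM in KO26, with 3 of 5 called lower in KO22 (*Col1a1*, -1.50, *Col1a2*, -1.74, and *Pdgfra*, -1.51). Also called in KO22 were the photoreceptor genes *Rom1* (-1.35) and *Rcvrn* (2.09), the muscle gene *Tnnt3* (-2.43, 1 of 2) and 0 of 2 immune genes (1 higher at an unadjusted p under 0.05, 0 by DESeq2). In KO26 none of these other cell type genes was called by edgeR or DESeq2's test. At an unadjusted p under 0.05, 2 endothelial and 1 fibroblast gene were lower and 3 fibroblast genes and 1 muscle gene higher. This was beside 4163 of the 20737 genes tested, in either direction. Between the clones *Kdr* (-4.73), *Col1a1* (-2.17), *Col1a2* (-2.21), *Tnnt3* (-2.51) and *Tnni2* (-1.76) were lower and *Rcvrn* (2.16) higher in KO22. Of all genes, 10.7% were called lower and 7.56% higher in that fit. The part of cell state in the levels of *Mitf* and *Slc24a5* was not tested.

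The 10 genes lie on GRCm39, the assembly named mm39 for the counts, at these positions, each spanning exons and introns of 1 annotated gene. *Mitf* (ENSMUSG00000035158) is at chr6:97783950-97998323, *Tyr* (ENSMUSG00000004651) at chr7:87073979-87142720, *Tyrp1* (ENSMUSG00000005994) at chr4:80752360-80769956 and *Dct* (ENSMUSG00000022129) at chr14:118250202-118289656. *Pmel* (ENSMUSG00000025359) is at chr10:128540064-128556107, *Mlana* (ENSMUSG00000024806) at chr19:29674900-29686034, *Oca2* (ENSMUSG00000030450) at chr7:55889191-56186280 and *Slc45a2* (ENSMUSG00000022243) at chr15:11000803-11029319. *Slc24a5* (ENSMUSG00000035183) is at chr2:124909836-124930597 and *Gpr143* (ENSMUSG00000025333) at chrX:151564842-151591652.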

How the data were processed

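RNA-seq was analysed in 15 libraries, grouped by their labels. Per the labels and the study's methods, the authors trimmed reads with Trim Galore 0.6.7, aligned them to mm39 with STAR, took gene counts and removed genes with low counts, and the raw count tables they deposited were used as they stand. The deposited normalized values were not used. No column was left unmapped to a sample.

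Counts were tested with edgeR 4.0.16 (R 4.3.3) by the quasi-likelihood test with TMM normalization, a filter that kept genes reaching 5 counts in 3 or more libraries, the run number as a term for mRPE, and Benjamini-Hochberg adjustment over all genes tested. The limits for a call were 0.05 on the adjusted p and 1.2 on the size of the log2 fold change. KO22 was compared with WT over 7 libraries, and KO26 with WT and with KO22 over all 9. The SE of a fold change was its size over the root of the F statistic. The code was tested on simulated data. CPM per kb uses exon lengths of GENCODE vM39.

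Alternatives were DESeq2 1.42.0 (size factors and test), other count filters, the adjusted p alone, no run term, other sets of libraries, and each library left out. Leaving out mitochondrial genes was added after seeing the data. The members and lists (melanosome biogenesis and transport, MITF family and RPE fate factors, melanogenic signalling, and markers of RPE, melanocytes, Schwann cells, photoreceptors, endothelium, fibroblasts, immune cells and skeletal muscle) were chosen with earlier results of these data known. The text names all 10 members, up to 5 called genes of each other list per direction and comparison, the most abundant gene of each cell type list, and the 5 genes nearest the members' mean profile. Exceptions are marked in the text, and a few list genes that this rule names are not reported here.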

Additional observations from a re-analysis of the deposited data

Results flagged for a closer look

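Among the members and the pigment and melanocyte lists, the clones differed from each other in 9 named genes, each by a direct test of KO22 against KO26 in edgeR's fit over 9 libraries (adjusted p under 0.05, and past the fold limit except for the member *Slc24a5*). The log2 fold changes were 2.97 for *Mitf*, 0.82 for *Slc24a5*, 3.46 for *Slc7a11*, 2.10 for *Sox9* and 1.62 for *Kitl*, all higher in KO22. They were -1.77 for *Rab27a*, -1.36 for *Myo7a*, -3.23 for *Lhx2* and -3.66 for *Pax3*, all lower in KO22. Over all genes 7.56% were called higher and 10.7% lower in the same fit. By list, the calls were 1 of 3 members higher, 1 of 34 melanosome genes higher and 2 lower, and 1 of 9 fate factors in each direction. There were also 1 of 3 signalling genes higher and the only melanocyte marker lower. Apart from the members, these genes were named because a fit had called them, this fit included, so their number says nothing about the lists.

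*Mitf* differed from WT in opposite directions in tissue, where it was not called, and in KO22, where it was. Every library labelled *Prom1*-KO lay below every WT library of RPE/choroid (log2 fold change -0.82) and every KO22 library lay above every WT library of mRPE (1.41). In KO26, the other clone, *Mitf* was lower than in WT, as in the tissue (-1.54, not called). The difference between tissue and KO22 was not tested.

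Among the 4 WT libraries of mRPE, the only group large enough to be screened in this way, 1 stood apart in a named gene. *Slc7a11* was at 5.76 CPM in WT replicate 1 of mRPE, from run 8995, beside 2.06 to 2.51 CPM in the other 3 WT libraries, a gap over Dixon's 95% limit for 4 values. Chance flags about 1 in 20 groups in this way.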

How the results depend on the processing

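No paired analysis was possible because the labels give the groups no shared replicate numbers, and the run number that mRPE libraries share was a term of the fits. Under the alternatives other than leaving out 1 library, no member changed direction, and the calls of members changed in KO26 and with the adjusted p alone. Of the members in KO26, 1 (*Mitf*) was called lower under DESeq2's test and 1 with the WT and KO26 libraries alone, beside 0, and leaving out 1 library gave 0 to 1. With the adjusted p alone, 2 members were higher in KO22 and 2 in KO22 over KO26, beside 1 each. Of all genes, 26.9% and 16.3% were higher in the same fits. When 1 library was left out, the calls of members higher in KO22 ran from 0 to 1, with 0 without WT replicate 1 or KO22 replicate 1.

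For the melanosome list, leaving out any 1 library gave 0 called lower in tissue, beside 1. In KO22 the genes called lower, 1 as reported, were 0 under DESeq2's test and 0 under filterByExpr, 2 without a run term, 0 to 3 with 1 library left out and 13 with the adjusted p alone, which gave 5 higher, beside 1. In KO26 the adjusted p alone gave 2 higher and 2 lower (2.36% and 1.13% of all genes), beside 1 and 1, and leaving out 1 library gave 1 to 2 higher. In KO22 over KO26 the adjusted p alone gave 6 higher and 7 lower (16.3% and 18.1% of all genes), beside 1 and 2. Leaving out 1 library gave 1 to 2 higher and 1 to 3 lower. The cause of these changes was not tested, except that the adjusted p alone drops the fold limit.

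Small tissue fold changes turned their sign with 1 library left out, namely *Oca2* (0.0029 without WT replicate 1, over a range from -0.25), *Slc24a5* (-0.054 without WT replicate 3, over a range to 0.14) and *Mlana* (-0.16 without WT replicate 3, -0.0081 without labelled *Prom1*-KO replicate 1 and -0.043 without replicate 2, over a range to 0.35). The tissue-to-culture ratios were 10.9, 100.5 and 4.56 for *Mitf*, *Pmel* and *Slc24a5* over the genes of both tables, and 26.0, 239.8 and 10.8 without mitochondrial genes. Over all genes in tissue, DESeq2's test called 83 higher and 188 lower, beside 0 and 47 by edgeR, whose lower calls ran from 9 to 37 with 1 library left out. In KO26, beside 250 and 149, it called 360 and 269, while edgeR called 123 and 71 without a run term and 408 and 410 with the WT and KO26 libraries alone. *Mitf* in KO26 and *Pmel* in all mRPE libraries rested on 14 to 50 reads, which limits their precision.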
